A study of Homo sapiens with 15 samples.

Results

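The windows described here are 1 kb stretches of the autosomes of HCT116, a human colorectal carcinoma cell line, whose methylation level (mC, the methylated reads over all reads at CpGs) lay between 35% and 65% in each of 5 unperturbed cell populations and that lay outside partially methylated domains (PMDs). A window was taken when it held 15 or more CpGs, had 100 or more reads in every library, had mC from 35% to 65% in all 5 Baseline libraries and touched no PMD in any Baseline domain call. This gave 4771 windows of 443770 that passed the CpG and read minimums, and of 328095 of those outside PMDs. They are called intermediate windows below, and the range of 35% to 65% is called the band. A further 16339 windows had the same Baseline level but overlapped a PMD.

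Whole-genome bisulfite sequencing was available for 15 libraries from 5 populations carrying a doxycycline (dox)-inducible short hairpin RNA. Cl.3, Cl.6 and Cl.9 were 3 clones with a hairpin against UHRF1 (shUHRF1), and R1 and R2 were 2 bulk populations with a hairpin against DNMT1 (shDNMT1). Each population was sequenced at Baseline (14 days without dox), at Knockdown (14 days with 10 ng/mL dox) and at Recovery (day 28, after 14 days with dox and 14 days without). The hairpin, the clonal or bulk nature of the cells and the count table cannot be told apart, because all shUHRF1 libraries came from single clones and all shDNMT1 libraries from bulk cells. Among the clones, Cl.9 came from a count table of its own, apart from that of Cl.3 and Cl.6, and was read more deeply. The libraries held 317670080 to 593644411 reads at CpGs, and the median autosomal CpG was read 11 to 21 times. Over all windows tested, the median mC fell from between 91.1% and 93.6% at Baseline to between 47.3% and 78.7% at Knockdown. None of the 12 pairs of libraries of the same shRNA and stage agreed within sampling noise, so all 15 were kept.

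In mammals, CpG methylation is copied onto the new DNA strand after replication by DNMT1, the maintenance methyltransferase, with UHRF1 reading hemimethylated sites and guiding DNMT1 to them. Most CpGs of a genome are either methylated or unmethylated, and intermediate levels are known from PMDs, from the edges of CpG islands and from imprinted regions where the parental copies differ. The question asked of the intermediate windows was whether the intermediate level came back after the hairpin was switched off. Because Baseline mC chose the windows, Baseline levels and changes from Baseline are descriptions. The mC values at Knockdown and Recovery did not enter the choice, for which those libraries had only to meet the read minimum.

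Stretches of 30 bases around the CpG nearest to the middle of 7 windows show what an intermediate window looks like at base level, read 5′ to 3′ on the forward strand of hg38 with the CpGs in capitals. They come from windows at the low and the high end of Recovery in the clones and from windows of the imprinted list, and serve as illustration, since the thinnest library held only 12 to 32 reads over a stretch.
TNS4, chr17:40500470-40500499: tgggaggcaCGgggCGggggcaaggagggc
POLL and DPCD, chr10:101587495-101587524: ccagtttggggaagCGggtCGggggagggg
COX17, chr3:119676435-119676464: aCGttatctgaggaCGtcctctaatgagat
Near ASL, chr7:66047477-66047506: attccctgtaccttCGttgagaaaatgggg
SEPHS2, chr16:30446560-30446589: gtggagtcactctcCGCGtCGgttgactca
KCNQ1, chr11:2533481-2533510: caCGtgtgtaCGtaCGtgcatgtgcaCGtc
GET1, chr21:39387521-39387550: gagtatagctccttCGgttatagtgctggg
The 3 CpGs of the SEPHS2 stretch were read as methylated in 97.1% to 100% of Baseline reads, and the CpG near ASL in 0% to 15.8%, although both windows had mC between 54.5% and 63.8% in every Baseline library. The COX17 stretch was methylated at Baseline, with 92.6% to 97.6%, and the 2 CpGs of the TNS4 stretch were partly methylated, with 26.8% to 66.7%. At Knockdown the COX17 stretch fell to between 10.2% and 61.0% and the TNS4 stretch to between 0% and 14.6%. At Recovery the COX17 stretch stood at 47.2%, 43.8% and 20.9% in Cl.3, in Cl.6 and in Cl.9, and at 87.2% in R1 and 80% in R2.

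Most intermediate windows were mosaics of methylated and unmethylated CpGs. Over the 4771 windows, the median window had 42.4% of its CpGs above 80% mC, 36.8% below 20% and 17.9% in between, with the Baseline reads of the 5 populations pooled. In 3723 windows (78.0%) less than 30% of the CpGs were between 20% and 80%, and these are called mixed. Only 81 windows (1.70%) had 70% or more of their CpGs in that range and are called uniform, and 967 (20.3%) lay in between. Window mC near 50% was therefore in most cases a mean over CpGs of opposite state, and the word intermediate describes the window, not its CpGs.

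The intermediate windows overlapped hypomethylated elements more often than all windows tested did. A UMR (unmethylated region) in all 5 Baseline calls was touched by 38.7% of them, against 7.37% of all windows tested, and an LMR (low-methylated region) in all 5 by 52.7%, against 5.21%. Only 24 windows touched neither kind in any Baseline call. Promoters of protein-coding genes, taken from 1 kb before to 100 bp after the 5′ end, held 17.8% of the intermediate windows and 5.55% of all windows, exons 27.6% and 24.8%, introns 30.0% and 42.8%, and intergenic sequence 24.6% and 26.8%. The median window held 24 CpGs, against 20 over all windows. These shares are descriptions, since the domain calls were made from the same Baseline libraries. The share of windows that were intermediate ranged over the chromosomes from 0.745% on chromosome 18 to 1.48% on chromosome 19.

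At Knockdown the intermediate windows lost methylation in every population, and at Recovery the level returned in the shDNMT1 populations and only in part in the shUHRF1 clones. Median mC in Cl.3 was 51.7% at Baseline, 37.9% at Knockdown and 42.9% at Recovery. It was 52.9%, 34.3% and 40.5% in Cl.6, and 47.7%, 24.7% and 31.3% in Cl.9. Among the clones, the fall was deepest in Cl.9, and all 3 clones rose by a similar amount afterwards. In R1 the median was 48.3%, then 19.7%, then 46.9%, and in R2 47.9%, then 19.1%, then 46.4%. The shDNMT1 populations thus started lower than Cl.3 and Cl.6, fell lower than any clone and ended higher than any clone. The median change of a window from Knockdown to Recovery was 5.88 points ± 0.677 (SD, n = 3) in shUHRF1 and 26.7 points ± 0.222 (SD, n = 2) in shDNMT1. From Baseline to Recovery it was -12.2 points ± 4.12 in shUHRF1 and -1.70 points ± 0.0869 in shDNMT1. Over all windows tested, the median change from Knockdown to Recovery was 9.25 points ± 3.59 in shUHRF1 and 37.8 points ± 0.834 in shDNMT1. From Baseline to Recovery it was -10.1 points ± 5.55 and -0.921 points ± 0.0315 over all windows. By clone, the deficit of the intermediate windows was -8.30, -11.9 and -16.5 points in Cl.3, in Cl.6 and in Cl.9. Over all windows it was -5.74, -8.12 and -16.3 points. The deficit was thus larger in the intermediate windows in every clone, and nearly equal in Cl.9. The median window held 301 to 619 reads per library, so the 95% Wilson interval of a window at 50% reached 3.93 to 5.61 points to either side, which covers counting error only.

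**Figure D1:**
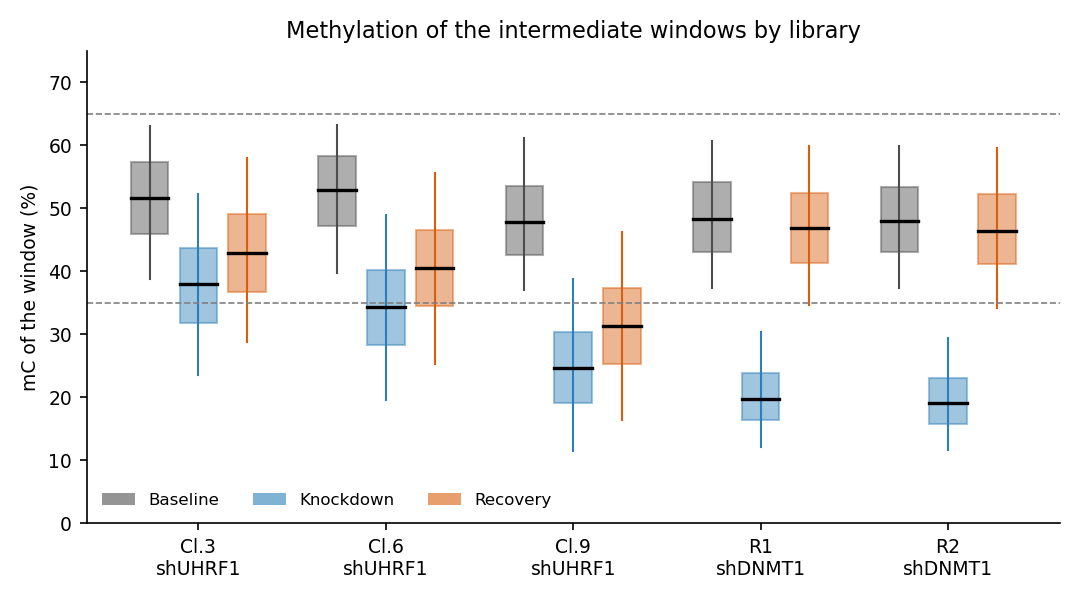
Methylation of the 4771 intermediate windows (vertical axis, mC in percent) in each of the 15 libraries, grouped by population (horizontal axis) and coloured by stage. Black bars are medians, boxes the middle 50% of windows, lines the 5th to 95th percentile, and dashed lines the band of 35% to 65%; Recovery boxes of R1 and R2 sit inside the band, with medians of 46.9% and 46.4%, while that of Cl.9 lies mostly below it, with a median of 31.3%.

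The share of windows in the band at Recovery followed the same order. At Knockdown 62.8% of the windows of Cl.3 were still between 35% and 65%, 46.6% in Cl.6 and 11.4% in Cl.9, but only 0.922% in R1 and 0.859% in R2. At Recovery Cl.3 had 80.1% of them there, Cl.6 72.9% and Cl.9 33.7%, while R1 had 93.7% and R2 92.9%. The mean at Recovery was 62.3% ± 25.0 (SD, n = 3) in shUHRF1 and 93.3% ± 0.563 (SD, n = 2) in shDNMT1. The shUHRF1 spread came from Cl.9, the only population with most of its windows below the band, and without Cl.9 the mean of the other clones was 76.5%. Clone, count table and depth cannot be told apart in this difference, with a median of 619 Baseline reads per window in Cl.9 against 301 in Cl.3 and 344 in Cl.6. Measured as windows within 5 points of their own Baseline, 29.1%, 17.4% and 6.67% were so at Recovery in Cl.3, in Cl.6 and in Cl.9, and 55.3% and 57.7% in R1 and R2.

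**Figure D2:**
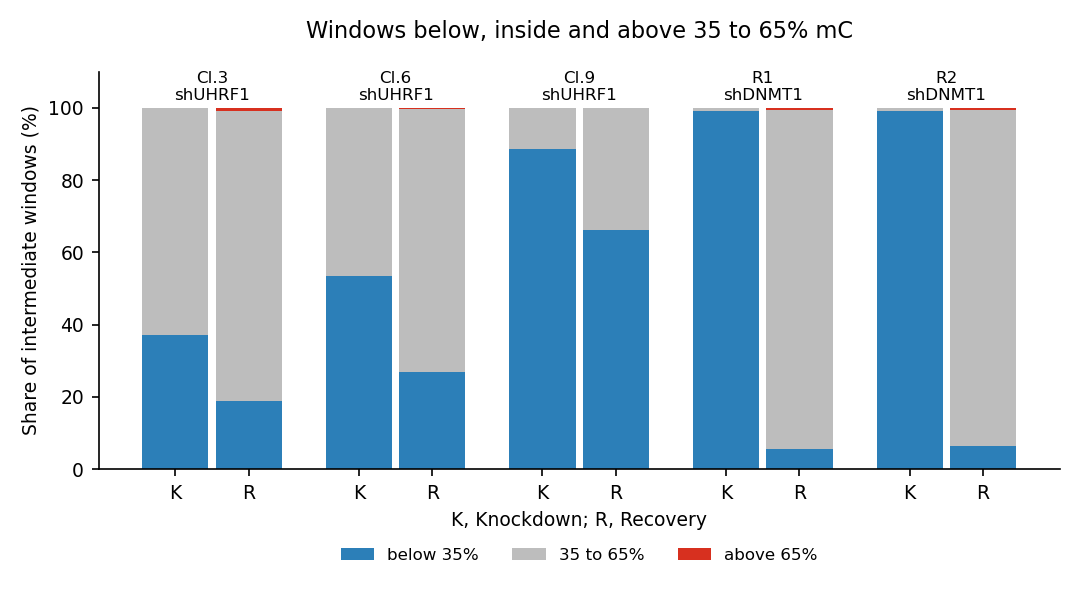
Share of the 4771 intermediate windows (vertical axis, percent) whose mC was below, inside or above the band of 35% to 65% at Knockdown (K) and Recovery (R) in each population (horizontal axis). In R1 the share inside the band went from 0.922% to 93.7%, and in Cl.9 from 11.4% to 33.7%.

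At Recovery 4221 windows (88.5%) were in the band in both bulk populations and 1398 (29.3%) in all 3 clones, while at Knockdown 12 and 448 had been. All 5 populations shared 1314 such windows. In all 3 clones 584 windows (12.2%) were below the band at Recovery, and of these 420 were in the band in both R1 and R2. In both R1 and R2 86 windows (1.80%) were below the band, and 48 of these were below it in all 3 clones as well. Overshoot was rare, with 0 windows above 65% in all 3 clones, 62 in at least 1 clone and 4 in both bulk populations. Across the 4771 windows, the change from Baseline to Recovery correlated between clones with a Pearson r of 0.378 to 0.443. The r was 0.0419 to 0.0661 between a clone and a bulk population, and 0.0472 between R1 and R2. In R1 and R2 this change had a median of only -1.76 and -1.63 points, smaller than the counting error given above. For the change from Baseline to Knockdown, r was 0.379 to 0.457 between clones. It was 0.212 to 0.363 between a clone and a bulk population, and 0.377 between R1 and R2. The clones and the bulk populations were read from different count tables, neighbouring windows are not independent, and every pair shares the choice of windows, so these are given as descriptions.

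A choice by Baseline level can by itself move later values away from the band, so the windows were also chosen on part of the data and measured on the rest. When the odd-numbered CpGs of each window chose 4656 windows and the even-numbered CpGs were measured, between 80.6% and 84.5% were in the band at Baseline. Neighbouring CpGs can share reads, and the PMD rule still used the Baseline calls of all populations, so this choice was only partly independent. At Recovery the shares were 71.4%, 65.5% and 35.9% in Cl.3, in Cl.6 and in Cl.9, and 81.6% and 81.1% in R1 and R2, against 83.9% and 84.5% in R1 and R2 at Baseline. When the Baselines of R1 and R2 chose 9221 windows, 76.6%, 75.1% and 80.3% were in the band at Baseline in Cl.3, in Cl.6 and in Cl.9, and 76.7%, 70.7% and 40.3% at Recovery. When the clones chose 6179 windows, 88.7% and 89.9% were in the band at Baseline in R1 and R2 and 87.6% and 87.3% at Recovery. In Cl.3 the share in the band was then no lower at Recovery than at Baseline, although its windows had regained only 36.9% of their loss.

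The intermediate windows kept and regained a smaller share of their methylation than windows that were fully methylated at Baseline. At Knockdown they kept 73.8%, 65.2% and 51.5% of their Baseline methylation in Cl.3, in Cl.6 and in Cl.9, and 41.8% and 40.7% in R1 and R2. The 253685 windows with mC of 85% or more in all 5 Baselines kept 88.1%, 81.3%, 68%, 57.1% and 55.9% in the same order. At Recovery the intermediate windows had regained 38.3%, 34.0% and 27.7% of the loss in the clones and 94.0% and 94.6% in R1 and R2, against 53.6%, 60.3%, 51.5%, 97.5% and 97.6% in the methylated windows. The intermediate windows were lower in 5 of 5 populations in both measures. Windows of the same Baseline level inside PMDs had regained 28.8%, 26.5% and 15.6% in the clones and 97.6% and 97.9% in R1 and R2, less than the intermediate windows in 3 of 3 clones and more in both bulk populations. No test was run on these summary shares. The median depth per CpG was 12.4 to 25.4 reads in intermediate windows and 11.2 to 21.7 in all windows, and its part in the differences was not tested.

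**Figure D3:**
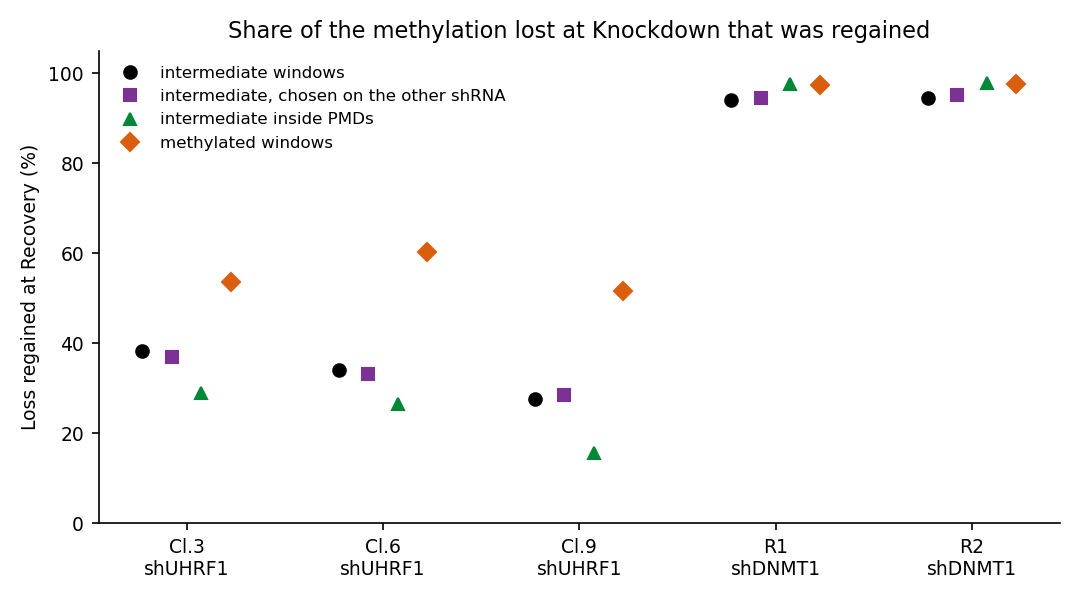
Share of the methylation lost at Knockdown that was regained at Recovery (vertical axis, percent) in each population (horizontal axis), for intermediate windows, intermediate windows chosen on the Baselines of the other shRNA, windows of the same level inside PMDs and methylated windows. Points are single populations; in the clones the intermediate windows lie between 27.7% and 38.3% and the methylated windows between 51.5% and 60.3%, while all sets of R1 and R2 lie at 94.0% or above.

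Tested window by window with edgeR's quasi-likelihood test (Benjamini-Hochberg adjusted p under 0.05 over all 443770 windows, with the population as a block), 869 of the 4771 intermediate windows rose from Knockdown to Recovery in shUHRF1, 18.2% of them, against 63.6% of all windows tested. Only 2 fell (0.0419%), against 0.0149% of all windows. In shDNMT1 4761 rose (99.8%), against 98.0% of all windows, and 0 fell, against 0.00901%. Without the population block, no rise was called in shUHRF1 over all windows tested, while rises were called in 4600 intermediate windows in shDNMT1, the same share of 96.4% as over all windows. The count of 869 also rested on single clones, being 244 without Cl.6, 554 without Cl.9 and 1048 without Cl.3, where the share over all windows was 36.3%, 47.1% and 66.6%. The rise was larger in shDNMT1 than in shUHRF1 in 4274 intermediate windows (89.6%) by the test of the difference itself, against 94.7% of all windows, and smaller in 0, against 0.0142%. That count was 2009 without the block and 2723 without R2, where 80.1% and 85.3% of all windows differed. The median rise of an intermediate window, as a log2 odds ratio, was 0.40 in shUHRF1 and 1.86 in shDNMT1, against 0.85 and 3.32 over all windows. The same change in points gives a larger log2 odds ratio in a highly methylated window than in an intermediate one. This bears on these ratios and on the shares called. In points the median rise in Cl.3, Cl.6 and Cl.9 was 5.11, 6.19 and 6.35, against 5.51, 9.56 and 12.7 over all windows.

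For the comparisons with Baseline, which the choice of windows used, the counts are given without reading. In shUHRF1 4408 windows were lower at Knockdown than at Baseline, 92.4% of the intermediate windows (98.4% of all windows), and 0 higher (0.0018%). At Recovery in shUHRF1 3198 were lower, 67.03% of the intermediate windows (91.7% of all windows), and 0 higher (0.00496%). The count of 3198 was 1200 without the block and 2088 without Cl.9, where 65.2% and 70.7% of all windows were called. In shDNMT1 4762 were lower at Knockdown, 99.8% of the intermediate windows (98.1% of all windows), and 0 higher (0.00856%). At Recovery in shDNMT1 edgeR called 0 intermediate windows against Baseline in either direction (0.000225% of all windows were lower), and limma called 0 lower. In edgeR 104 (2.18%) had an unadjusted p under 0.05, against 4.03% of all windows.

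Within the mixed windows, the CpGs that were methylated at Baseline lost methylation and the unmethylated ones did not rise above their Baseline. The 47514 CpGs at 80% or more went in Cl.3 from 96.0% to 77.2% at Knockdown and 84.3% at Recovery, in Cl.6 from 96.2% to 70.3% and 80.9%, and in Cl.9 from 94.98% to 53.8% and 66.9%. In R1 they went from 94.2% to 39.5% and back to 91.3%, and in R2 from 94.2% to 38.5% and 91.6%. The 42823 CpGs below 20% had 3.43% to 6.09% at Baseline, 0.904% to 1.72% at Knockdown and 1.51% to 3.32% at Recovery, and were below Baseline at Recovery in all 5 populations. The 15050 partly methylated CpGs regained less of their loss in the clones than the methylated ones, 19.2%, 17.4% and 12.8% in Cl.3, in Cl.6 and in Cl.9, against 37.9%, 41.0% and 31.8% for the methylated CpGs of the same windows. In R1 and R2 they regained 90.6% and 90.9%, against 94.8% and 95.2%. The partly methylated CpGs were also sparser, with a median of 14 bp to the nearest CpG against 11 bp, and the part of this spacing was not tested.

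Methylated CpGs close to an unmethylated neighbour regained less than those far from one, by more points in the clones than in the bulk populations. Within 50 bp of the nearest CpG below 20%, 1906 methylated CpGs regained 28.9%, 31.9% and 23.7% of their loss in Cl.3, in Cl.6 and in Cl.9. Beyond 400 bp, 16944 CpGs regained 44.5%, 49.2% and 39.8%. The values between did not rise in steady steps, with 35.7%, 39.1% and 29.8% between 50 and 100 bp and 33.3%, 33.1% and 25.2% between 100 and 200 bp. Between 200 and 400 bp they were 36.4%, 39.7% and 29.8%. In R1 and R2 the values were 94.0% and 93.6% within 50 bp and 95.8% and 96.4% beyond 400 bp. Being near full return in every class, R1 and R2 had little room for a difference in points. The size of the difference is therefore not compared between the shRNAs. The median distance to the nearest CpG was 9, 10, 9, 10 and 13 bp from the closest class to the farthest. CpG density thus differed between the classes, and its part was not tested.

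**Figure D4:**
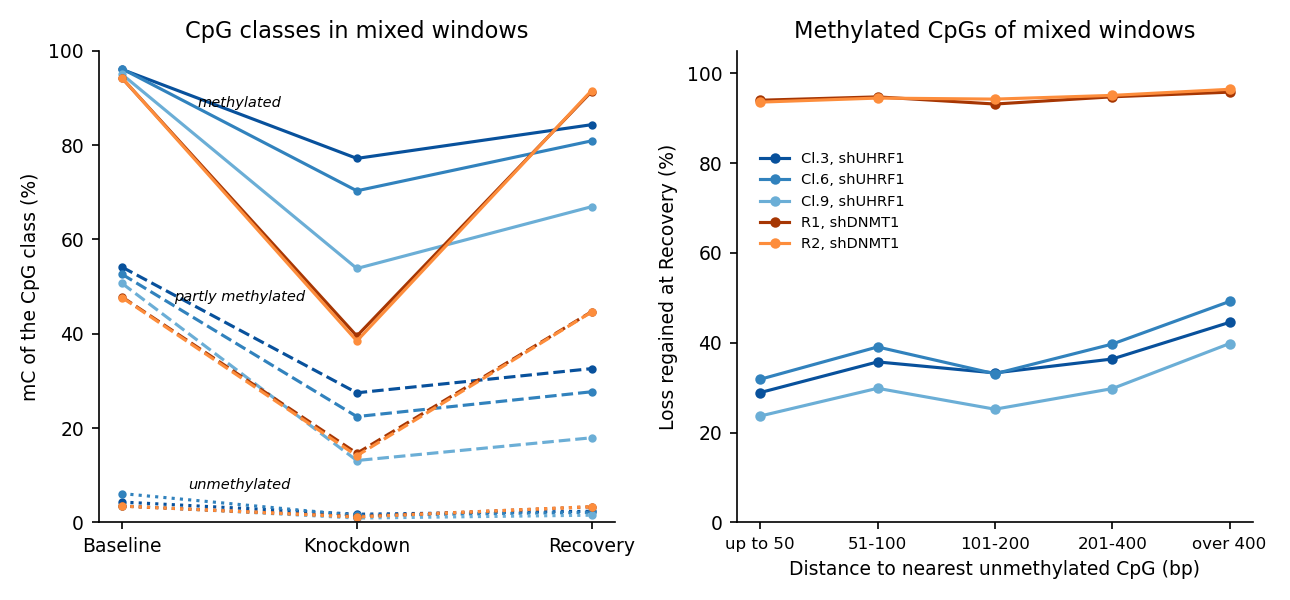
Left, mC (vertical axis, percent) of methylated, partly methylated and unmethylated CpGs of the 3723 mixed windows at the 3 stages, with 1 line per population. Right, the share of the lost methylation regained at Recovery (vertical axis, percent) by methylated CpGs against their distance to the nearest unmethylated CpG (horizontal axis, bp); the clones lie between 23.7% and 49.2%, and R1 and R2 between 93.1% and 96.4%.

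The 81 uniform windows, in which most CpGs were partly methylated in the pooled Baseline reads, also fell and rose. Pooling also takes in CpGs whose state differed between populations, and CpGs were not classed within single populations. Their median mC was 50.2%, 38.8% and 41.9% at the 3 stages in Cl.3, 52.1%, 36.2% and 42.2% in Cl.6 and 46.4%, 28.4% and 33.7% in Cl.9. In R1 it was 45.5%, 20.6% and 47.9%, and in R2 46.6%, 20.0% and 44.6%. From Knockdown to Recovery 16 of them rose in shUHRF1 (19.8%) and 80 in shDNMT1, against 648 (17.4%) and 3714 of the mixed windows and 63.6% and 98.0% of all windows. Among the uniform windows at promoters, which were picked after the values were seen, that of HNF4A, a transcription factor of liver and gut epithelium, lay at chr20:44355001-44356000. There mC in Cl.3, Cl.6 and in Cl.9 was 54.3%, 46.97% and 64.1% at Baseline, 29.3%, 32.2% and 46.9% at Knockdown and 35.8%, 32.6% and 55.3% at Recovery, and in R1 and R2 it was 47.99% and 42.5%, then 22.4% and 19.8%, then 40.4% and 38.4%. All 5 populations were lower at Recovery than at Baseline, and the 2 bulk populations were the nearest to it in points.

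The 5 windows with the lowest mean Recovery level in the clones all lay within 1 kb of the 5′ end of a gene. The share of all intermediate windows this near a 5′ end was not worked out, and SEPHS2 and ACOT1, at the high end, were promoter windows too. TNS4, which encodes a tensin of focal adhesions, held 1 of the low windows, in an intron at chr17:40500001-40501000, 623 bp from its 5′ end. The mC in TNS4 in Cl.3, Cl.6 and in Cl.9 was 53.1%, 64.3% and 58.4% at Baseline, 9.54%, 12.7% and 11.7% at Knockdown and 9.697%, 11.5% and 16.97% at Recovery, and in R1 and R2 it was 45.8% and 44.7%, then 15.3% and 11.9%, then 36.2% and 34.3%. The clones, whose low Recovery level chose the window, ended at 16.97% or less, and R1 and R2 at 34.3% or more. The change from Knockdown to Recovery was called in shDNMT1 (log2 odds ratio 1.80, adjusted p = 2.6e-06, edgeR) and missed the threshold in shUHRF1 (log2 odds ratio 0.20, adjusted p = 0.54). The window at chr10:101587001-101588000, over exons of POLL, the DNA repair polymerase lambda, and of DPCD, had a similar course. The mC in POLL in Cl.3, Cl.6 and in Cl.9 was 41.1%, 48.9% and 45.98% at Baseline, 17.6%, 10.8% and 5.08% at Knockdown and 18.4%, 16.2% and 7.41% at Recovery, and in R1 and R2 it was 45.9% and 43.97%, then 12.4% and 12.7%, then 39.5% and 35.99%. The clones again ended low, at 18.4% or less, as the choice of the window required.

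COX17, a copper chaperone for cytochrome c oxidase, held the window at chr3:119676001-119677000. The mC in COX17 in Cl.3, Cl.6 and in Cl.9 was 52.9%, 43.2% and 43.3% at Baseline, 15.8%, 19.6% and 4.75% at Knockdown and 25.4%, 14.9% and 4.11% at Recovery, and in R1 and R2 it was 43.1% and 38.6%, then 8.902% and 7.08%, then 38.1% and 39.3%. Cl.6 and Cl.9 were lower at Recovery than at Knockdown. At CIRBP, which encodes a cold-inducible RNA-binding protein, the window at chr19:1274001-1275000 overlapped the promoter of the neighbouring FAM174C. The mC at CIRBP in Cl.3, Cl.6 and in Cl.9 was 64.3%, 46.6% and 44.3% at Baseline, 13.7%, 8.09% and 6.59% at Knockdown and 25%, 11.9% and 7.82% at Recovery, and in R1 and R2 it was 42.2% and 44.1%, then 8.77% and 6.78%, then 30.1% and 32.02%. Here even R1 and R2 ended below the band. The last of the 5, in the promoter of PLEKHA4 at chr19:48868001-48869000, ended at 22.4%, 16.5% and 5.25% in Cl.3, in Cl.6 and in Cl.9, and at 43.5% and 34.6% in R1 and R2.

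The 2 windows called lower at Recovery than at Knockdown in shUHRF1 had not fallen at Knockdown in most clones. A call of a later fall favours windows that were high at Knockdown, so this was partly set by the choice of these windows. The first lay in the promoter of CLDN23, which encodes a tight-junction claudin, at chr8:8702001-8703000 with 112 CpGs. The mC in CLDN23 in Cl.3, Cl.6 and in Cl.9 was 51.01%, 64.3% and 52.4% at Baseline, 60.7%, 57.2% and 56.9% at Knockdown and 34.1%, 34.7% and 46.5% at Recovery, and in R1 and R2 it was 54.2% and 45.9%, then 37.4% and 25.3%, then 47.4% and 55%. Cl.3 and Cl.9 were above their Baseline at Knockdown, all 3 fell afterwards (log2 odds ratio -1.14, adjusted p = 0.0013, edgeR), and both bulk populations rose (log2 odds ratio 1.22, adjusted p = 0.00094). The other lay over an exon of FBXO21, a substrate receptor of ubiquitin ligases, at chr12:117155001-117156000. The mC in FBXO21 in Cl.3, Cl.6 and in Cl.9 was 62.9%, 55.6% and 40.7% at Baseline, 52.7%, 57.7% and 43.2% at Knockdown and 35.2%, 34.4% and 28.7% at Recovery, and in R1 and R2 it was 45.5% and 57.03%, then 32.1% and 28.03%, then 48.9% and 55.1%. All 3 clones fell from Knockdown to Recovery (log2 odds ratio -1.12, adjusted p = 0.00098, edgeR) and R1 and R2 rose (log2 odds ratio 1.33, adjusted p = 0.00019).

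The largest called rises of shUHRF1 reached log2 odds ratios of 1.32 to 1.43 and still ended below Baseline. In RCC1, the nucleotide exchange factor of the GTPase Ran, the window at chr1:28509001-28510000 covered an exon and the host gene of small nucleolar RNAs SNHG3. The mC in RCC1 in Cl.3, Cl.6 and in Cl.9 was 47.6%, 57.2% and 46.02% at Baseline, 9.54%, 15.6% and 4.51% at Knockdown and 22.2%, 23.98% and 15.8% at Recovery, and in R1 and R2 it was 54.6% and 50.1%, then 13.98% and 9.96%, then 50.7% and 51.9%. The clones rose from a low Knockdown level and ended no higher than 24.0%, below both bulk populations. The other 4 were windows near LFNG, a glycosyltransferase acting on Notch, in SHB, an adaptor of receptor kinases, in TBC1D14, a regulator of vesicle traffic, and in AXL, a receptor tyrosine kinase. Their Recovery mC in the clones ranged from 12.2% in AXL in Cl.6 to 51.8% in TBC1D14 in Cl.3.

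The largest rises of shDNMT1 had log2 odds ratios of 3.23 to 3.37. HOXA7, a homeobox transcription factor of body patterning, held the first, at chr7:27155001-27156000. The mC in HOXA7 in Cl.3, Cl.6 and in Cl.9 was 60.7%, 56.5% and 51.4% at Baseline, 39.7%, 44.98% and 28.1% at Knockdown and 34.04%, 50.5% and 37.2% at Recovery, and in R1 and R2 it was 62.5% and 57.8%, then 13.3% and 13.3%, then 63.96% and 58.8%. Both bulk populations ended slightly above Baseline, while all 3 clones stayed below theirs and Cl.3 fell again from Knockdown to Recovery. In COLEC11, a collectin of innate immunity, the window at chr2:3605001-3606000 overshot. The mC in COLEC11 in Cl.3, Cl.6 and in Cl.9 was 62.8%, 57.4% and 53.3% at Baseline, 42.7%, 54.1% and 34.3% at Knockdown and 48.4%, 42.9% and 38.7% at Recovery, and in R1 and R2 it was 47.9% and 48.3%, then 17.4% and 26.4%, then 66.8% and 79.4%. R1 and R2 ended above the band and above all clones. The other 3 windows lay in WDR90, C7orf50 and NUP98, the last a nuclear pore gene whose window covers the promoter of PGAP2.

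At the other end, 5 windows had the highest mean Recovery mC in the clones, namely those of ACOT1 with HEATR4, near ASL, SEPHS2, SDCBP2 and SNX29. SEPHS2 encodes a selenophosphate synthetase, and its promoter window lay at chr16:30446001-30447000. The mC at SEPHS2 in Cl.3, Cl.6 and in Cl.9 was 63.8%, 56.6% and 61.5% at Baseline, 68.2%, 51.5% and 52.3% at Knockdown and 66.9%, 62.3% and 56.1% at Recovery, and in R1 and R2 it was 55.8% and 58.5%, then 35.05% and 29.4%, then 57.3% and 54.2%. The clones stayed between 51.5% and 68.2% at every stage, while the bulk populations fell to 35.05% and 29.4% and rose again. The window at the ACOT1 promoter, chr14:73537001-73538000, had 92 CpGs and as few as 103 reads in a library. ACOT1 encodes an acyl-CoA thioesterase with a near-identical neighbour, ACOT2, so its reads are uncertain. Among the windows with the highest lowest Knockdown level, those near AGO2, TEF and SCCPDH and in FXYD6 kept at least 37.9% in all 5 populations, and each of these was a mixed window. Only 11 windows were in the band at Knockdown in all 5 populations.

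**Figure D5:**
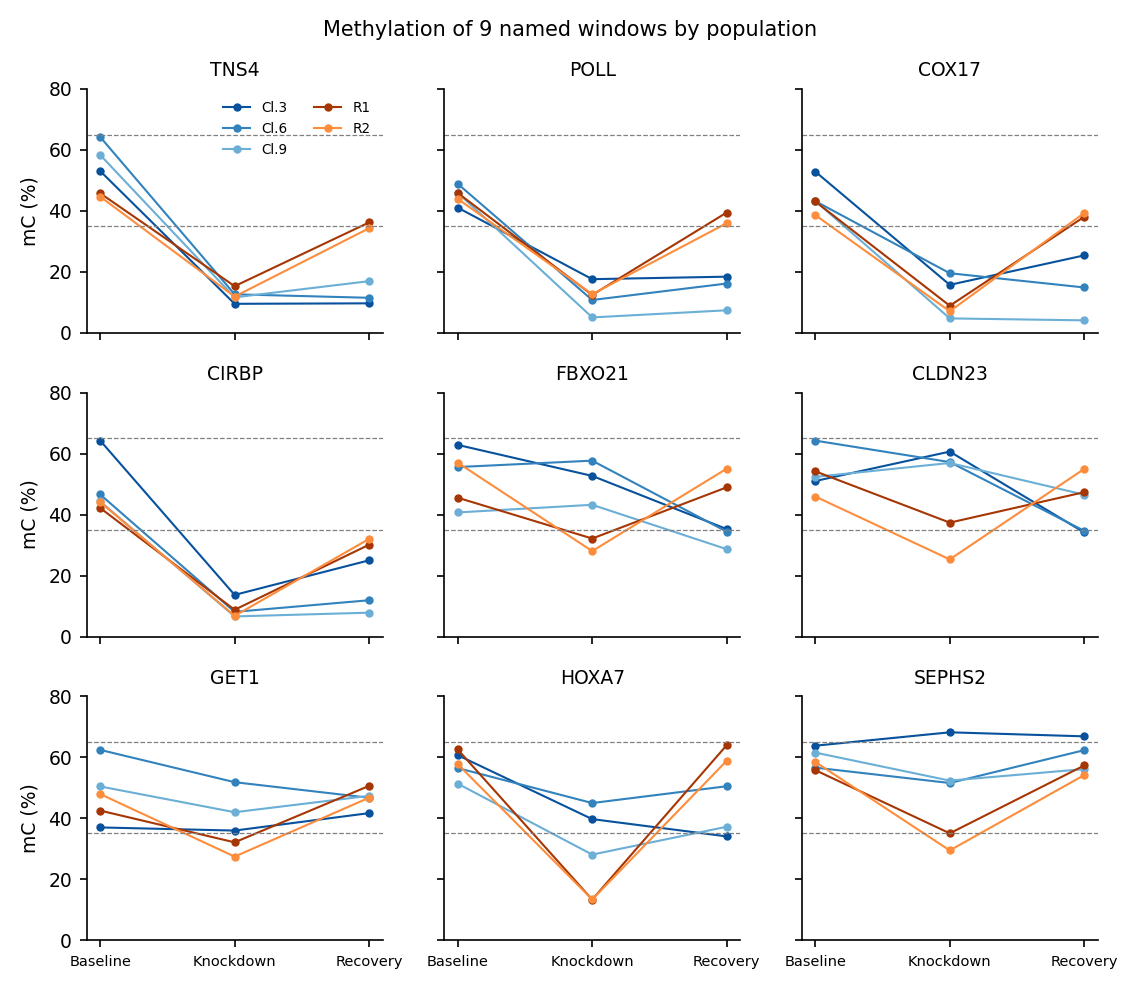
mC (vertical axis, percent) of 9 named windows at Baseline, Knockdown and Recovery (horizontal axis), with 1 line per population and dashed lines at 35% and 65%. TNS4, POLL, COX17 and CIRBP stay low in the clones at Recovery, CLDN23 and FBXO21 fall in the clones after Knockdown, and SEPHS2 moves mainly in R1 and R2.

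Genes of a list of imprinted loci, where part of the sequence differs in methylation between the parental copies, held few intermediate windows. A window counted for a gene when it overlapped the gene body or lay within 5 kb of its 5′ end. Such windows need not lie where the parental copies differ, and whether any of them did was not tested. Of 45 listed genes 43 were found in the annotation, and 8 of their 1387 tested windows (0.577%) were intermediate, against 1.08% of all windows. They lay in KCNQ1 and TRAPPC9 (2 windows each), HERC3, HM13, GET1 and MEG3, and none was in H19, IGF2, SNRPN, PEG3, GNAS or KCNQ1OT1. From Knockdown to Recovery 3 of the 8 rose in shUHRF1, where 63.6% of all windows did, and all 8 in shDNMT1, where 98.0% did. GET1, which inserts tail-anchored proteins into the endoplasmic reticulum, held the only uniform window, over an exon at chr21:39387001-39388000. The mC in GET1 in Cl.3, Cl.6 and in Cl.9 was 36.98%, 62.4% and 50.4% at Baseline, 35.95%, 51.8% and 41.97% at Knockdown and 41.7%, 46.7% and 47.3% at Recovery, and in R1 and R2 it was 42.5% and 47.9%, then 32.1% and 27.4%, then 50.6% and 46.7%. All 5 populations were in the band at Recovery, and Cl.3, Cl.9 and R2 were within 5 points of their Baseline. The KCNQ1 window, in an intron of this potassium channel gene at chr11:2533001-2534000, fell further. The mC in KCNQ1 in Cl.3, Cl.6 and in Cl.9 was 58.4%, 49.1% and 39.3% at Baseline, 27.7%, 27.9% and 18.4% at Knockdown and 47.5%, 31.8% and 21.98% at Recovery, and in R1 and R2 it was 53.2% and 51.3%, then 19.4% and 17.2%, then 46.96% and 49.02%. Its clones ranged from 21.98% to 47.5% at Recovery, overlapping R1 at 46.96%. The rise was called in both shRNAs in this window (adjusted p = 0.0498 in shUHRF1, edgeR) and in those of HM13, a signal peptide peptidase, and the noncoding MEG3 (adjusted p of 0.0084 and 0.010 in shUHRF1, edgeR). The MEG3 window lay at chr14:100851001-100852000. The mC in MEG3 in Cl.3, Cl.6 and in Cl.9 was 47.2%, 53.5% and 57.5% at Baseline, 33.5%, 50.9% and 30.1% at Knockdown and 51.7%, 55.2% and 51.9% at Recovery, and in R1 and R2 it was 60.3% and 45.2%, then 28.7% and 35.5%, then 49.7% and 43.9%. Cl.3 and Cl.6 ended above their Baseline there, and Cl.9 below its own.

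For the other gene lists, a window counted when its nearest 5′ end of a protein-coding gene lay within 5 kb and belonged to the list. HOX genes held 7 intermediate windows of 233 (3.00%), zinc finger genes 54 of 2420 (2.23%) and developmental transcription factors 14 of 926 (1.51%). The clustered protocadherins held 0 of 160, and DNMT1, counted by the rule of the imprinted list, 1 of 78. Windows near 5′ ends differ from gene bodies, so these shares do not compare with those of the imprinted list or of all windows. From Knockdown to Recovery in shUHRF1 3 of the 7 HOX windows, 7 of the 54 zinc finger windows and 0 of the 14 developmental windows rose, while in shDNMT1 all 7, 54 and 14 did. Of all windows 63.6% rose in shUHRF1 and 98.0% in shDNMT1, so the shDNMT1 counts are near the background. The median log2 odds ratio of the rise in shUHRF1 was 0.39, 0.29 and 0.29 in the 3 lists, against 0.40 over the intermediate windows and 0.85 over all windows.

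Nearly all intermediate windows stood alone, with 4556 single windows, 100 pairs of neighbours and 5 runs of 3. The runs began at chr1:2044001-2047000 near PRKCZ, chr12:124737001-124740000, chr16:3187001-3190000 over OR1F1, chr20:31611001-31614000 near ID1 and chr22:39533001-39536000 near RPS19BP1. Inside a run the windows could differ. At the ID1 run, ID1 encoding an inhibitor of differentiation, Cl.9 stood at 14.2%, 23.6% and 43.4% in the 3 windows at Knockdown and at 21.98%, 38.4% and 52.0% at Recovery. The last of these had not fallen in Cl.3 and Cl.6, with 52.3% and 50.1% at Knockdown against 49.2% and 48.2% at Baseline.

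Domain calls made in each library moved with these levels. At Knockdown a PMD reached 11.1%, 28.0% and 56.6% of the intermediate windows in Cl.3, in Cl.6 and in Cl.9, and 11.3% and 10.5% in R1 and R2, against 29.5%, 53.1%, 79.0%, 60.8% and 60.5% of all windows. The intermediate windows were chosen to touch no PMD at Baseline, when PMDs already held 12.1% to 23.7% of all windows, so the comparison is partly set by the choice. In R1 and R2 a UMR touched 88.7% and 91.1% of them at Knockdown, against 41.7% and 41.5% at Baseline and 42.1% and 42.0% at Recovery. Over all windows the UMR share in R1 and R2 went from 9.41% and 9.40% at Baseline to 42.2% and 44.9% at Knockdown. In the clones a UMR touched 45.7%, 48.8% and 66.0% of the intermediate windows at Knockdown, against 13.9%, 17.8% and 30.8% of all windows. At Recovery a PMD reached 21.3% of the intermediate windows in Cl.9, against 41.3% of all windows, and 2.47% and 5.62% of them in Cl.3 and Cl.6. The calls depend on how much was called in each library, and the classes overlap.

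The band has sharp bounds that separate like windows. Just inside, a window in PTPRG and 1 in SYNJ2 had a lowest Baseline mC of 35%, and just outside, windows near TPRA1 and in CD81 had 34.99%. At the upper bound, windows near HELT and at WDR91 had a highest Baseline mC of 65%, and those in TRAF5 and near SLC1A7 had 65.01% and 65.02%.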

How the data were processed

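Genomic DNA of 15 HCT116 libraries, covering Baseline, Knockdown and Recovery in 3 clones with shUHRF1 and 2 bulk populations with shDNMT1, was analysed by whole-genome bisulfite sequencing. The authors aligned reads to hg38 with the Meth10X pipeline and deposited counts of methylated reads and of all reads at each CpG, with no filter on coverage. The authors also deposited 1 domain list per library, with classes from MethylSeekR and bedtools 2.25.0, and only class names and positions of these were used. How duplicate reads and sequence variants were treated is not given in the sources used here.

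Counts were summed in 1 kb windows, and windows were chosen as described in the report. The windows, gene lists and named windows were chosen with earlier results of these data known. Hairpin, population and stage of each library were read from its title. Methylated and unmethylated counts were fitted together with edgeR 4.0.16 (quasi-likelihood test, R 4.3.3) over 443770 windows and all 15 libraries, with the population as a block and a separate Knockdown and Recovery term for each shRNA. P-values were adjusted by Benjamini-Hochberg over all windows, and a window was called at an adjusted p under 0.05. A log2 odds ratio compares the odds of a methylated read. The 3 libraries of a population come from the same cells, which pairs them. The deviations of Baseline and later libraries from their group means correlated with r of 0.384 to 0.524 in the clones and -0.000316 to 0.00731 in the bulk populations. Nothing states that the clones or bulk populations were made in separate experiments. With the block, p-values measure how far the change between stages varied among these populations, not how far their levels differed. This spread was estimated over both shRNAs together, with 6 residual degrees of freedom per window and 51.56 borrowed from other windows.

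The fit was tested on simulated data for 20000 windows, 200 of which were changed. A log2 change of 1 was called in 12.0% (higher) and 24.0% (lower) of 50 windows each, a change of 2 in 96.0% and 90.0%, and 3.48% of all calls were false. The simulated clones all had the same response and few windows changed, unlike in the data. These values therefore do not give the power or the share of false calls of the counts reported here. Genes came from GENCODE 44 on hg38, whose sequence held CG at all 27852739 autosomal positions. Windows were named by fixed rules, namely the member with the most CpGs in each imprinted gene, the longest runs (5 tied at 3 windows), the 5 largest and smallest changes, the 5 highest lowest Knockdown levels, the 5 lowest and highest Recovery levels in the clones, and windows next to the bounds. Of the windows so chosen, 1 is not reported here. The HOX, DNMT1 and uniform promoter windows were added after the values were seen. The alternatives tried were other bands, read and CpG minimums, shifted windows, unweighted means, limma 3.58.1 with a pseudocount of 1 or 0.5, other models, and each population left out.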

Additional observations from a re-analysis of the deposited data

Results flagged for a closer look

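The rise from Knockdown to Recovery differed between shDNMT1 and shUHRF1, by the interaction of the edgeR fit with Benjamini-Hochberg adjustment over all windows, in 4274 intermediate windows (89.6%), against 94.7% of all windows, and in all of these it was larger in shDNMT1. The count was 2009 without the population block, where 80.1% of all windows differed, and it was also lower without R2. The hairpin, the clonal or bulk nature of the cells and the count table cannot be told apart in this difference. It was called in 26 of 40 windows chosen by the naming rules, a smaller share than over all windows. Many of the 40 were chosen by a level or change that enters this difference, so their values are descriptions. Among those with the smallest Recovery level in the clones, the interaction had a log2 odds ratio of 1.59 in TNS4, 1.64 in POLL, 3.01 in PLEKHA4, 2.78 in COX17 and 1.78 at CIRBP. Of the windows that rose most in shDNMT1, it was 3.16 in HOXA7, 3.31 in COLEC11, 2.77 in WDR90, 3.37 in C7orf50 and 2.77 in NUP98. In CLDN23 and FBXO21, where the clones fell and the bulk populations rose, it was 2.36 and 2.45. The windows with the smallest called rises in shUHRF1 had 1.15 in ACADSB and 1.68 near GSDMC, and those with the largest 1.604 in RCC1, 1.03 in SHB and 1.04 in TBC1D14. Imprinted genes gave 1.44 in KCNQ1, 1.81 in TRAPPC9, 1.04 in GET1 and 1.203 in HERC3, each for the window with the most CpGs in the gene, and 5 of the 8 imprinted windows were called. Windows with the highest lowest Knockdown level gave 1.37 in FXYD6 and 1.00 near AGO2, and those with the highest Recovery level in the clones 2.56 at ACOT1, 1.18 near ASL and 1.15 at SEPHS2. The 14 windows not called had values from 0.0094 in MEG3 to 0.85 in HM13, among them 0.69 near LFNG, 0.83 in AXL, 0.82 near TEF, 0.13 near SCCPDH, 0.83 in SDCBP2 and 0.58 in SNX29. Groups held 2 or 3 libraries, so single libraries that stand apart were not looked for within groups.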

How the results depend on the processing

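The median changes between the 3 stages kept their sign in both shRNAs under all alternatives run. The number of intermediate windows was 1723 with a band of 0.40 to 0.60, 8416 with 0.30 to 0.70, 3006 without windows of unusual depth and 9221 when shDNMT1 alone chose (a choice added after the data were seen). In shDNMT1 the change at Knockdown was -28.2 points with the wider band, -29.1 with unweighted means, -28.6 without unusual depth and -27.6 when chosen on the other shRNA, and the change at Recovery was -1.58 with unweighted means and -1.44 when chosen on the other shRNA. From Knockdown to Recovery it rose by 27.4 points with unweighted means, 26.98 without unusual depth and 26.1 when chosen on the other shRNA. Its share returned was 85.5% with the narrower band, 96.3% with the wider, 95.8% with unweighted means, 81.4% on even CpGs, 87.4% when chosen on the other shRNA, and 87.7% and 56.5% within 0.10 and 0.05 of Baseline, while that of shUHRF1 was 39.1% and 17.7% within these limits and 42.9% with the narrower band. Its share regained was 93.8% with the narrower band and 94.9% when chosen on the other shRNA. These shDNMT1 values are called moved against an SD from 2 populations.

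Uniform windows numbered 39 with CpG bounds of 0.3 to 0.7, of which 89.7% returned in shDNMT1, and 48 with a share of 80% or more. The shUHRF1 rises from Knockdown to Recovery numbered 0 without the population block (no replicate block), 334 and 320 with limma (47.8% and 45.6% of all windows), 437 with shUHRF1 libraries only (55.6%) and 244 to 1048 with 1 clone left out (36.3% to 66.6%). Without the block 1200 windows were below Baseline at Recovery in shUHRF1 (65.2% of all windows) and 2009 differed between the shRNAs (80.1%). Leaving out 1 population gave 2088 to 3481 and 2723 to 4322 for these, and the lowest counts came without Cl.9 and without R2. A population left alone in its group was assumed to vary like the others. Counting error at 50% was 3.93 to 5.61 points for the median window of a library, and larger for windows near the minimum of 100 reads.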
